A study of Macaca fascicularis with 34 samples.

Results

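The DPPA genes (developmental pluripotency associated) and 3 further genes of pluripotent and germ cells, L1TD1, UTF1 and ZFP42, were followed cell by cell in the early germ line of the cynomolgus monkey (Macaca fascicularis). The members were DPPA2, DPPA3, DPPA4, DPPA5, L1TD1, UTF1 and ZFP42, chosen by human gene symbol; all 7 were found among the 28551 genes of the expression table. The study sequenced the 3' ends of amplified cDNA of 34 single cells. Of these, 25 were embryo cells: 3 of embryonic day (E) 13, 1 of E14, 11 of E16, 2 of E17 and 8 of E20. The other 9 were male gonad cells: 6 of E36, 1 of E47 and 2 of E55. The subspecies was fascicularis for all cells, and the labels give no sex for the embryos, no genetic change, no treatment, no cell type and no animal. Because each library is 1 cell and no animal is named, each stage counts as a single sample: the SD given beside a mean is that between cells, n is the number of cells, and no test was made.

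These genes are used to recognise cells that keep or regain features of pluripotency. DPPA2 and DPPA4 encode related SAP-domain chromatin proteins that work as a pair in mouse embryonic stem cells. DPPA3, also called STELLA, is a maternal-effect factor and a classic marker of mouse primordial germ cells, and its protein restrains UHRF1, the factor that brings the maintenance DNA methyltransferase DNMT1 to replicated DNA. DPPA5 encodes a small KH-domain RNA-binding protein, and L1TD1 an RNA-binding protein derived from a LINE-1 transposon. ZFP42 (REX1) is a zinc finger relative of YY1 and a marker of naive mouse stem cells, and UTF1 is a chromatin-bound factor of pluripotent cells and spermatogonia.

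Levels are in RPM, a gene's reads relative to all reads of its cell, and 15 RPM served as the detection threshold. Depth ran from 472189 to 3556594 reads per cell, and 5102 to 8106 genes reached 15 RPM. Reads came from amplified cDNA without molecular identifiers, so Poisson intervals and the limit of 3 reads behind a count of 0 cover counting error only. A clustering made without the 7 genes gave 26 germ-cell-like cells, in which 10 to 14 of 14 germ cell markers reached 15 RPM, and 8 other cells with 3 to 10. Those 8, E16 cell 8 and E20 cells 1 to 7, had 5 to 9 of 10 mesoderm markers at 15 RPM, against 1 to 7 in the germ-cell-like cells, and a median summed mesoderm level of 2100 RPM against 158 RPM. E16 cell 8 also had 7 of 8 endoderm markers, which summed to 5730 RPM against 2540 RPM for its mesoderm markers; E20 cells 1 to 7 had 1 to 3. Among the germ-cell-like cells, E17 cell 2 had 7 mesoderm markers beside 11 germ cell markers and joined the other cluster under average linkage. Gonadal somatic markers reached 21600 RPM, summed over 14 genes, in the E47 cell, and 8 of the 14 were detected in E36 cell 5. The cell titles carry codes: MS11 for the gonad and E17, MS09 for E16 and also E20 cell 8, MS08 for the remaining E20 cells, MS10 for E13 and MS13 for the E14 cell.

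DPPA4 and L1TD1 were present in nearly every cell, DPPA3, DPPA5 and ZFP42 in about as many cells as not, DPPA2 in few and UTF1 in none. Cells at 15 RPM or more numbered 31 of 34 for DPPA4, 32 for L1TD1, 18 for DPPA3, 17 for ZFP42, 16 for DPPA5, 7 for DPPA2 and 0 for UTF1. All 26 germ-cell-like cells passed the threshold for both DPPA4 and L1TD1. The rank order of stages differed from gene to gene, as the plot of the levels in single cells shows.

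**Figure D1:**
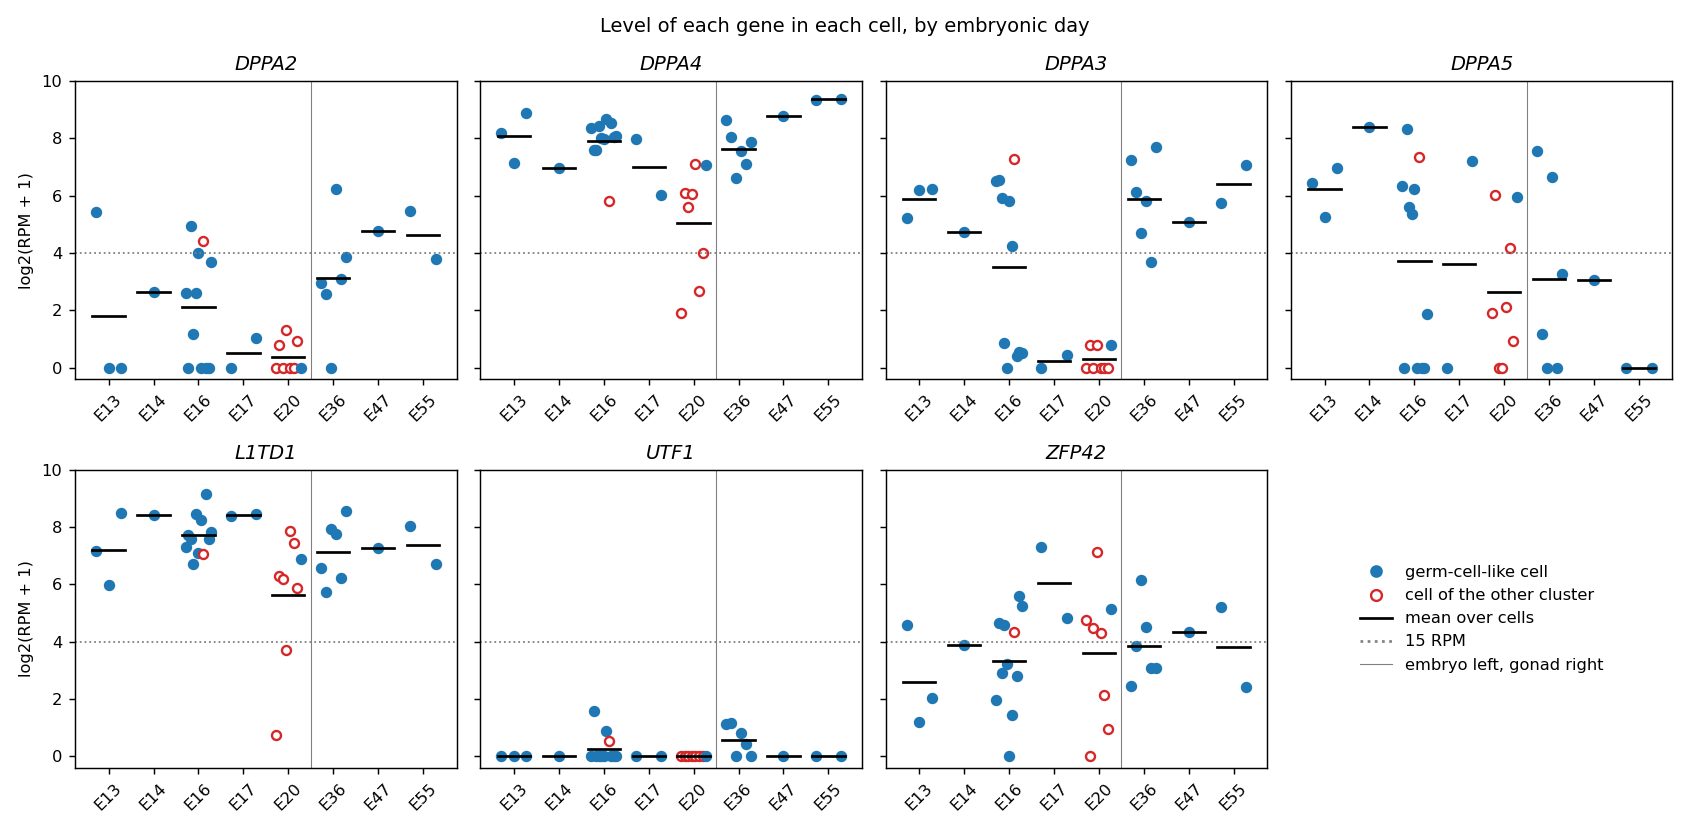
Level of each of the 7 genes in each cell (y axis, log2(RPM + 1)) by stage (x axis); filled blue points are germ-cell-like cells, open red points the other cluster, bars the mean over cells, the dotted line 15 RPM and the thin vertical line the border between embryo and gonad. DPPA3 lies near 0 in the 10 cells of E17 and E20, and UTF1 stays near 0 throughout.

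DPPA3 was present at E13, at E14 and in 6 of 11 E16 cells, and under 1 RPM in every E17 and E20 cell. It was at 11.9 RPM or more in all 9 gonad cells, 8 of them past the detection threshold. The E13 cells held 36, 72.2 and 73.8 RPM and the E14 cell 25.5 RPM. At E16 the 11 cells ran from 0 to 154 RPM with a median of 18.2 RPM, and they split: 6 cells held 18.2 to 154 RPM and the other 5 (cells 4, 5, 9, 10 and 11) at most 0.827 RPM. All 10 cells of E17 and E20 lay under 1 RPM, with 5 reads between them, or 0.284 RPM of their summed depth (exact 95% Poisson interval 0.0921 to 0.662).

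In the gonad, the 6 E36 cells held 11.9 to 209 RPM (median 62.2), the E47 cell 32.7 RPM and the E55 cells 53.3 and 133 RPM. Summed over the 9 gonad cells, DPPA3 stood at 72.8 RPM (68.6 to 77.3). For DPPA3, no gonad cell overlapped any E17 or E20 cell. This pool of stages is not among the comparisons below. The share of all genes that separate the same cells is not given, so the separation is not shown to be particular to DPPA3. Of the E17 and E20 cells, 3 are germ-cell-like: E17 cells 1 and 2 and E20 cell 8, with 10, 11 and 11 of 14 germ cell markers, held 0, 0.357 and 0.738 RPM of DPPA3. Their mesoderm markers summed to 589, 668 and 52.0 RPM, with 2, 7 and 1 of 10 at 15 RPM. E16 cells 4, 5, 9, 10 and 11 are germ-cell-like as well and held at most 0.827 RPM of DPPA3. A loss of DPPA3 from germ-cell-like cells between E16 and E17 or E20 is therefore not shown. The E17 libraries held 2678935 and 2799254 reads and the E13 libraries 472189 to 775709, and the part of depth or of mesoderm transcripts in these levels was not tested. Over the germ-cell-like cells, DPPA3 had a Spearman correlation of -0.45 with depth (26 cells of all stages, given as a description). In order of mean log2(RPM + 1), the stages ran E55, E13, E36, E47, E14, E16, E20 and E17. Only the step from E16 (3.52, SD 3.01) to E20 (0.30, SD 0.41) was larger than the SD of both of its neighbours. That step mixes the clusters, as E20 cells 1 to 7 belong to the other cluster. In germ-cell-like cells it went from 3.14 (SD 2.89, n = 10) to 0.80 in E20 cell 8. This difference of -2.34 is smaller in size than the SD at E16.

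DPPA2 was also nearly absent at E17 and E20, and its stage means were highest at E47 and E55. At E13, cell 1 held 42.4 RPM and the other 2 cells 0 RPM, and the E14 cell held 5.19 RPM. The E16 cells ran from 0 to 29.5 RPM (median 5.01), with 3 of 11 at 15 RPM or more and 4 at 0. The E17 cells held 0 and 1.07 RPM, and the E20 cells 0 to 1.5 RPM. These 10 cells of E17 and E20 gave 7 reads, or 0.397 RPM of their summed depth (0.160 to 0.819). Of them, E20 cells 1 to 7 belong to the other cluster, and the germ-cell-like E17 cells 1 and 2 and E20 cell 8 held 0, 1.07 and 0 RPM. DPPA2 was also without a read in 2 of 3 E13 cells and 4 of 10 germ-cell-like E16 cells. A loss of DPPA2 from germ-cell-like cells at E17 and E20 is therefore not shown.

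The late gonad cells held 26.3 RPM of DPPA2 at E47 and 43.0 and 13 RPM at E55, 2 of the 3 past 15 RPM. The E36 cells ran from 0 to 74.3 RPM (median 7.15), and E36 cell 4 alone made up the top of that range. From E47 to E20, the neighbouring stages in the order of mean levels differed by no more than the larger of their SDs, so the order within the series (E47, E55, E36, E14, E16, E13, E17, E20) is loose. With a threshold of 5 RPM the number of positive cells rose from 7 to 15, and with 50 RPM it was 1.

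DPPA4, the partner of DPPA2, was never lost from a germ-cell-like cell. The E13 cells held 292, 139 and 471 RPM and the E14 cell 126 RPM. E16 cells ran from 54.6 to 404 RPM with a median of 263 RPM, and the lowest of them was cell 8, the one in the other cluster. At E17 the cells held 253 and 63.6 RPM. E20 cells ran from 2.75 to 137 RPM (median 57.1), with cells 1, 6 and 7 under 15 RPM. In the gonad, the E36 cells held 97.9 to 396 RPM (median 211), the E47 cell 437 RPM and the E55 cells 648 and 663 RPM, the highest values of the series. Both E55 cells lay above every embryo cell, whose maximum was 471 RPM. The share of all genes that separate these cells likewise is not given, so this is not shown to be particular to DPPA4. The stages ran E55, E47, E13, E16, E36, E17, E14 and E20 in mean level; the step from E55 (9.36, SD 0.02) to the single E47 cell (8.78) was the one larger than the SDs beside it.

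DPPA5, the KH-domain gene, had its highest stage mean at E14, which is 1 cell, and its lowest at E55. The E13 cells held 86.8, 37.4 and 125 RPM and the E14 cell 340 RPM. E16 cells ran from 0 to 317 RPM (median 40.1), with 6 of 11 at 15 RPM or more and 4 at 0. The E17 cells held 0 and 147 RPM, and the E20 cells 0 to 65.0 RPM (median 3.06).

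In the gonad DPPA5 was carried by few cells. E36 cells 1 and 4 held 189 and 101 RPM, and the other 4 cells 0 to 8.65 RPM. The E47 cell held 7.26 RPM. The 2 E55 cells had no read of DPPA5, which allows up to 1.27 RPM of their summed depth. DPPA5 was also without a read in 4 of 10 germ-cell-like E16 cells and 2 of 6 E36 cells. A loss by E55 is therefore not shown. The stages ran E14, E13, E16, E17, E36, E47, E20 and E55. The step from the E14 cell (8.41) to E13 (6.23, SD 0.88) was larger than the SD at E13, and the last step, from E20 (mean log2(RPM + 1) 2.64, SD 2.46) to E55 (0), was larger than the SD at E20.

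L1TD1, the LINE-1 derived RNA-binding gene, had the narrowest range of stage means among the 6 detected genes, from 5.62 to 8.41 in log2(RPM + 1). Its E13 cells held 144, 61.9 and 357 RPM, the E14 cell 339 RPM and the E17 cells 333 and 345 RPM. The E16 cells ran from 105 to 565 RPM (median 192), the E36 cells from 51.7 to 379 RPM (median 155), the E47 cell held 154 RPM and the E55 cells 262 and 103 RPM. Only E20 reached lower, from 0.687 to 231 RPM (median 75.3), and the 2 cells under 15 RPM, cells 1 and 4, belong to the other cluster. Its order was E14, E17, E16, E55, E47, E13, E36 and E20, and neighbouring stages in it never differed by more than the larger of their SDs.

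ZFP42 was low and scattered, with its top value at E17. The E13 cells held 23.3, 1.29 and 3.08 RPM and the E14 cell 13.9 RPM. The E16 cells ran from 0 to 47.9 RPM (median 8.35), the E17 cells held 156 and 27.2 RPM, and the E20 cells ran from 0 to 140 RPM (median 19.8). In the gonad, the E36 cells ran from 4.41 to 70.0 RPM (median 10.5), the E47 cell held 19.0 RPM and the E55 cells 35.9 and 4.35 RPM. Cells at 15 RPM or more occurred in every stage except E14, in both clusters (12 of 26 and 5 of 8 cells), and 3 of 34 cells reached 50 RPM. The stages ran E17, E47, E14, E36, E55, E20, E16 and E13, with no step larger than the larger SD beside it. Of the 7 genes, it was the one whose mean was as high in the other cluster (28.7 ± 46.1 RPM, SD, n = 8) as in germ-cell-like cells (23.1 ± 31.9 RPM, n = 26).

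UTF1 was barely detected. All 34 cells together gave 14 reads, or 0.218 RPM (0.119 to 0.366), and the highest cell, E16 cell 2, held 2.04 RPM. The reads lay in 7 cells, 3 at E16 and 4 at E36. UTF1 did not reach the mean of 1 RPM required in any comparison and is left out of the counts that follow.

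The first comparison set the gonad cells against the embryo cells. A gene was taken as measured when its mean reached 1 RPM in either group, and as at least 2-fold higher or lower when the mean log2(RPM + 1) differed by 1 or more. Of 6 measured genes, 3 were higher in the gonad and 1 was lower, where 7.62% of all 15245 measured genes were higher and 15.1% lower. The mean of DPPA3 was 82.3 ± 66.9 RPM over the 9 gonad cells, against 27.3 ± 41.5 RPM over the 25 embryo cells, a difference of 3.36 on the log2(RPM + 1) scale. Its gonad cells ran from 11.9 to 209 RPM (median 55.4) and its embryo cells from 0 to 154 RPM (median 0.739), so the groups overlapped.

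DPPA2 averaged 21.1 ± 23.9 RPM in the gonad and 5.61 ± 10.7 RPM in the embryo, a difference of 2.21. DPPA4 differed by 1.24, with 341 ± 210 RPM in the gonad and 189 ± 134 RPM in the embryo. DPPA5 was lower in the gonad by a difference of -1.45, with 34.2 ± 66.8 RPM against 64.4 ± 93.3 RPM. L1TD1 (0.14) and ZFP42 (0.32) differed little, and no gene separated the groups without overlap. Gonadal somatic markers reached 15 RPM for 1 to 12 of 14 genes in gonad cells (summed 33.3 to 21600 RPM) and 0 to 4 in embryo cells (5.45 to 424 RPM), where WT1 and AMH were at 0; their part in these differences was not tested.

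Taking the germ-cell-like embryo cells alone (17 cells) changed one of these calls. DPPA3 stayed at 2.68, DPPA2 at 1.99 and DPPA5 at -1.94, while DPPA4 came to 0.30. With a pseudocount of 10 RPM, DPPA2 came to 0.88 and DPPA5 to -0.81. With the log2 ratio of mean RPM, DPPA4 came to 0.84 and DPPA5 to -0.90, and with medians over cells DPPA4 came to 0.47. Among germ-cell-like cells 9.01% of measured genes were higher and 14% lower. DPPA4 also came to 0.37 without the E20 cells, and to 0.98 without the 4 gonad cells with at least 300 RPM of summed gonadal somatic markers, where DPPA5 was -1.64. DPPA5 came to -0.75, and DPPA4 to 1.11, without E55 cell 2, E36 cell 5 and the E47 cell, those with the most gonadal somatic markers. The code MS11 is shared by E17 and all gonad cells. Within it, the 9 gonad cells exceeded the 2 E17 cells by 5.69 for DPPA3, 3.11 for DPPA2 and 1.15 for DPPA4. Against the same 2 cells they stood at -2.16 for ZFP42, -1.21 for L1TD1 and -1.19 for DPPA5. E17 cell 2 joined the other cluster under average linkage, and the share of all genes past 2-fold in this setting is not given.

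**Figure D2:**
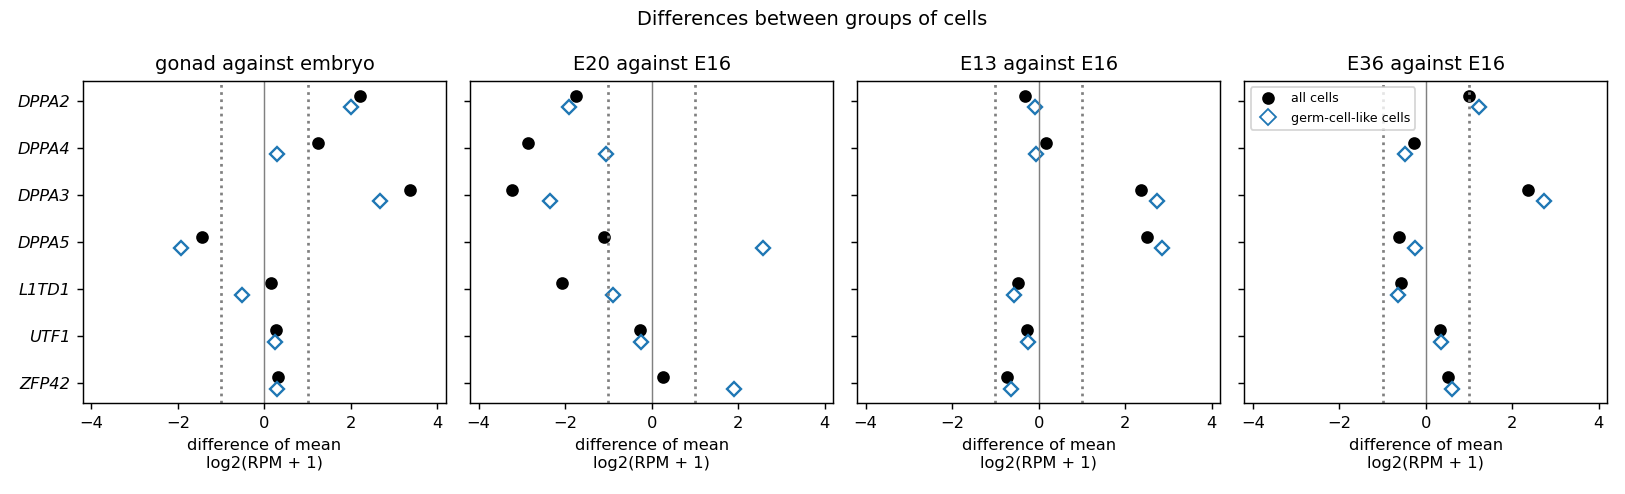
Difference of mean log2(RPM + 1) (x axis) for the 7 genes (y axis; UTF1 was below the level required to count) in 4 comparisons (panels); filled points use all cells, open diamonds germ-cell-like cells only, and dotted lines mark a difference of 1 either way. DPPA3 lies beyond 1 in each panel, at 3.36, -3.22, 2.36 and 2.37 with all cells.

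The 3 comparisons that follow share the E16 cells as reference and are not independent of each other. At E20 against E16, 5 of 6 genes were at least 2-fold lower and 0 higher, where 18.9% of 14998 measured genes were lower and 13.9% higher. The differences were -3.22 for DPPA3, -2.85 for DPPA4, -2.08 for L1TD1, -1.75 for DPPA2 and -1.09 for DPPA5, and ZFP42 stood at 0.27. For DPPA4 the means were 59.2 ± 53.1 RPM at E20 (n = 8) and 265 ± 96.9 RPM at E16 (n = 11). L1TD1 averaged 92.5 ± 78.3 RPM against 234 ± 132 RPM, and the ranges of every gene overlapped. The call of DPPA5 was marginal: it was lost on leaving out any of E20 cells 1, 3, 4 and 7 or of E16 cells 1, 3, 4, 5, 6 and 8, with -0.63 at the extreme, without E16 cell 3.

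Cell identity moved with this comparison. E20 cells held 3 to 11 of 14 germ cell markers (summed median 1120 RPM) and E16 cells 10 to 12 (8650 RPM). Mesoderm markers at 15 RPM numbered 1 to 8 of 10 at E20 (summed 52.0 to 8770 RPM, median 1640) and 1 to 9 at E16 (46.0 to 2540 RPM, median 182), and none of the 10 was at 0 in either stage. Their part in the differences was not tested. The sole germ-cell-like E20 cell, cell 8, held 134 RPM of DPPA4, below the 191 to 404 RPM of the 10 germ-cell-like E16 cells. It held 60.5 RPM of DPPA5, 116 RPM of L1TD1, 34.3 RPM of ZFP42, 0.738 RPM of DPPA3 and no read of DPPA2. Against germ-cell-like E16 cells, this 1 cell therefore stood at 2.57 for DPPA5 and 1.90 for ZFP42, at -2.34 for DPPA3, -1.90 for DPPA2 and -1.05 for DPPA4, and at -0.90 for L1TD1. In that setting 37.7% of measured genes were lower and 21.7% higher.

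At E13 against E16, DPPA5 (2.50) and DPPA3 (2.36) were higher, 2 of 6 genes, where 17.2% of 14350 measured genes were higher and 23.3% lower. The 3 E13 cells all carried both genes, whereas 5 of 11 E16 cells lay under 15 RPM for each. On mean RPM the contrast was small: DPPA3 averaged 60.7 ± 21.4 RPM at E13 and 42.9 ± 52.1 RPM at E16, and DPPA5 82.9 ± 43.7 RPM and 65.8 ± 97.4 RPM. DPPA4 (0.16), DPPA2 (-0.32), L1TD1 (-0.49) and ZFP42 (-0.73) stayed inside the 2-fold bounds. In germ-cell-like cells the same 2 genes were higher, DPPA5 by 2.86 and DPPA3 by 2.74, and 0 lower, where 19.2% of measured genes were higher and 22.1% lower. With 3 cells, single ones weighed heavily: without E13 cell 1, DPPA2 came to -2.13 and ZFP42 to -1.73, without E13 cell 3 L1TD1 came to -1.13, and without E16 cell 6 ZFP42 came to -1.07.

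At E36 against E16, DPPA3 (2.37) was the 1 gene of 6 past 2-fold, where 7.28% of 14293 measured genes were higher and 30.2% lower. It averaged 87.0 ± 77.3 RPM in 6 E36 cells. DPPA2 stood at 0.99, just short of the bound, and moved to 1.61 without E36 cell 3 and to 0.37 without E36 cell 4. DPPA5 stood at -0.62 and moved to -1.52 without E36 cell 1 and to -1.33 without E36 cell 4, but to 0 without E36 cell 3 or without E36 cell 5. ZFP42 (0.51), DPPA4 (-0.27) and L1TD1 (-0.57) stayed within 2-fold, while the median of all measured genes was -0.48. In germ-cell-like cells DPPA3 came to 2.74 and DPPA2 to 1.22, 2 of 6 genes higher and 0 lower, where 8.47% of measured genes were higher and 28.8% lower.

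Single cells did not carry the DPPA genes as a block. Among the 26 germ-cell-like cells, all 6 with DPPA2 at 15 RPM or more also had DPPA3, 11 had DPPA3 without DPPA2 and 9 had neither. Of the same cells 9 had both DPPA3 and DPPA5, 8 DPPA3 alone, 4 DPPA5 alone and 5 neither. The Pearson correlation of DPPA3 with DPPA5 was 0.15, and that of DPPA2 with its partner DPPA4 was 0.26 (26 cells of all stages each).

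Within the 11 E16 cells, DPPA2 and DPPA5 went together. Cells 3, 6 and 8 held 29.5, 15 and 20.6 RPM of DPPA2 with 317, 75.0 and 161 RPM of DPPA5. Cells 2, 7, 9 and 10 had no read of either gene. Over the 11 cells, which share stage and title code, Pearson's r was 0.83 (Spearman 0.91). It was 0.81 without cell 8 and 0.76 without the 2 cells farthest from the median of DPPA2, and it was -0.03 over the 16 germ-cell-like cells of other stages. ZFP42 tended to be high where DPPA3 was low: r was -0.49 over 26 germ-cell-like cells and -0.66 over the 16 outside E16, which include the E17 cells. These correlations are descriptions, 15 pairs having been looked at.

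**Figure D3:**
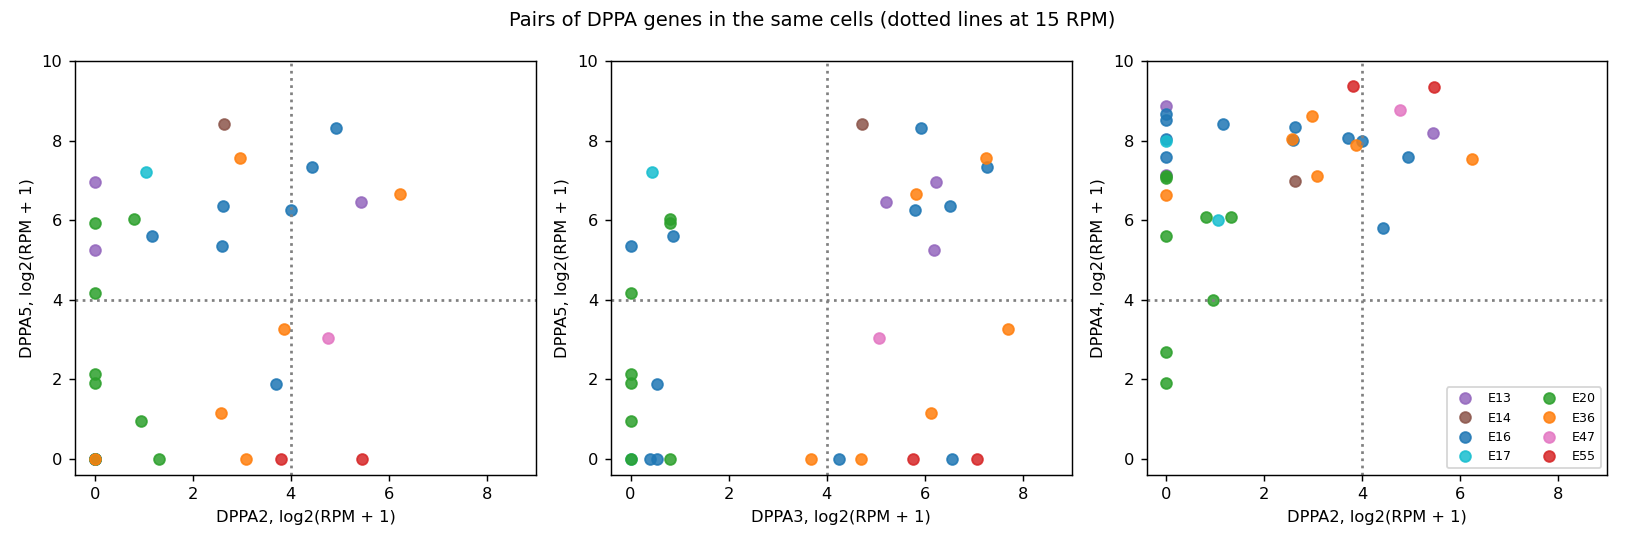
Levels of DPPA2 and DPPA5, DPPA3 and DPPA5, and DPPA2 and DPPA4 in the same cell (both axes log2(RPM + 1)); each point is 1 of 34 cells, coloured by stage, and dotted lines mark 15 RPM. The E16 cells rise together in the panel of DPPA2 and DPPA5 (r 0.83).

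The genes most like each member were sought over the 26 germ-cell-like cells among 7128 genes, as a description with no test. For DPPA2 they were TMEM170B (r 0.77), ZNF559 (0.75) and C17orf58 (0.71), and for DPPA4 PBXIP1 (0.73), FOXP1 (0.71) and NFAT5 (0.63). DPPA3 was most like SH3TC1 (0.70), UBASH3B (0.65) and the integrin gene ITGA6 (0.64). DPPA5 was most like the glycolytic gene PGK1 (0.71), SH3BGRL (0.65) and LYPD1 (0.64). L1TD1 had TMEM194A (0.66), DCAF6 (0.66) and C5orf44 (0.61), and ZFP42 had MRPS30 (0.65), TMED5 (0.64) and TMEM57 (0.64). By Spearman correlation 7 of these 18 genes remained among the top 3, and over all 34 cells 4 of 18.

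Genes on either side of the members were followed too, with the order taken from RefSeq's annotation of the assembly T2T-MFA8v1.1, which may not be the one behind the table. DPPA5, on chromosome 4, lies in a row of genes expressed in oocytes and early embryos: OOEP, KHDC3L, DPPA5, KHDC1 and KHDC1L. KHDC1L separated E13 from all other stages: the E13 cells held 3290, 1630 and 1410 RPM, the E14 cell 0.433 RPM, the E16 cells 13.8 ± 35.6 RPM (n = 11), and no cell after E13 exceeded 141 RPM. The share of all genes that separate E13 likewise is not given, and neighbours were chosen after the table was seen. E13 is also the only stage of code MS10 and has the shallowest libraries (472189 to 775709 reads). The part of either in this separation was not tested. KHDC3L, a member of the subcortical maternal complex of the egg, was high in the E14 cell (197 RPM), E16 cell 8 (763 RPM) and E17 cell 2 (410 RPM), cells that held 340, 161 and 147 RPM of DPPA5. It lay between 0 and 2.05 RPM in all gonad cells, including E36 cells 1 and 4, which carried DPPA5. Of 34 cells, 6 reached 15 RPM of KHDC3L and 16 reached it for DPPA5, so most cells with DPPA5 lay under 15 RPM of KHDC3L. OOEP reached 84.2 RPM in E36 cell 3, a cell without a read of DPPA5. Neighbouring KH-domain genes are similar in sequence, and how reads shared between copies were counted is not known, so their single values are less certain.

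DPPA3 lies on chromosome 11 between GDF3, a growth factor of the TGF-beta family, and NANOG, a core pluripotency factor. GDF3 averaged 644 ± 251 RPM at E13, 168 ± 202 RPM at E16 and 0.0816 ± 0.200 RPM in the 6 E36 cells, which held 11.9 to 209 RPM of DPPA3. It stood at 61.7 RPM in the E47 cell and at 116 and 0 RPM in the E55 cells. NANOG stood at 1220 and 576 RPM in the E17 cells and 566 RPM in E20 cell 8, all under 1 RPM for DPPA3. DPPA2 and DPPA4 are direct neighbours on chromosome 2, close to MORC1, a germ cell chromatin gene that was at 0 RPM in E20 cells 1 to 7 and at 45.7 RPM in E20 cell 8. TRIML2, next to ZFP42 on chromosome 5, averaged 137 ± 62.9 RPM in the gonad (n = 9) and 95.3 RPM over all 34 cells. At E20, where cells 1 to 7 belong to the other cluster, it averaged 17.6 ± 31.8 RPM (n = 8). VENTX, a homeobox gene beside UTF1 on chromosome 9, reached 15 RPM in 28 of 34 cells, while UTF1 reached it in none.

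**Figure D4:**
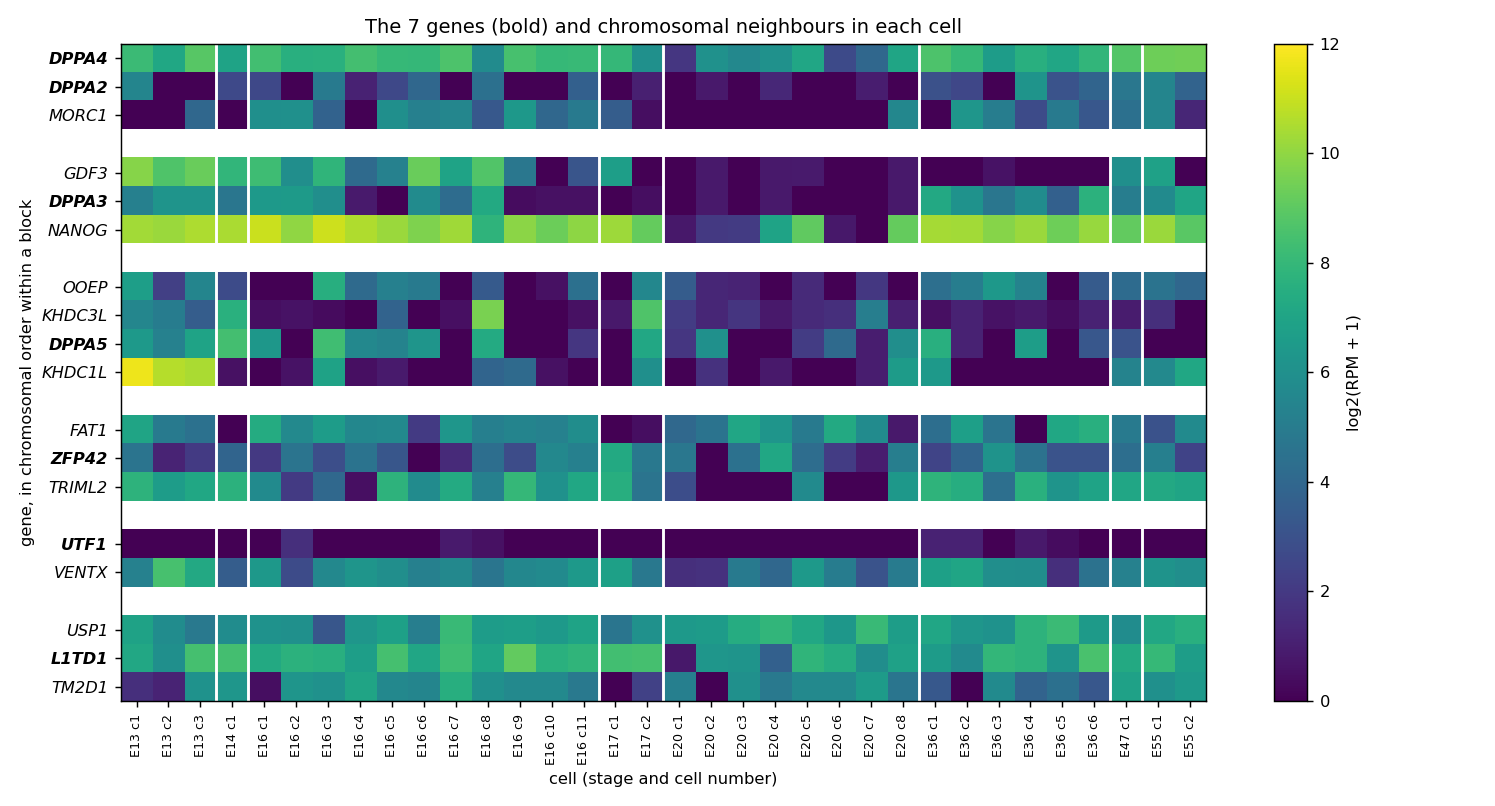
Level (colour, log2(RPM + 1)) of the 7 genes, in bold, and of their neighbours (rows, in chromosomal order within a block) in each of the 34 cells (columns, by stage). KHDC1L stands out in the 3 E13 cells, and UTF1 stays dark beside VENTX.

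Related genes of each pathway were counted in the same comparisons, and each count is to be read beside the shares of all measured genes. In the gonad 7.62% of these were higher and 15.1% lower than in the embryo, or 9.01% and 14% among germ-cell-like cells. At E20 against E16, 13.9% were higher and 18.9% lower. Of the 9 genes of DNA methylation around DPPA3, 7 were at least 2-fold higher at E20 than at E16 and 0 lower (median difference 1.64, against -0.12 over all measured genes). UHRF1, the target of the DPPA3 protein, averaged 131 ± 97.8 RPM at E20 and 16.1 ± 24.5 RPM at E16, and DNMT1 208 ± 106 RPM against 90.5 ± 65.1 RPM. With the 1 germ-cell-like E20 cell against germ-cell-like E16 cells, 3 of 8 were higher and 3 lower (median -0.08, all genes -0.53). In the gonad 4 of 9 were lower than in the embryo and 0 higher (median -0.73, all genes -0.17): UHRF1 (11.1 ± 11 against 51.7 ± 78.4 RPM), DNMT1, the de novo methyltransferase gene DNMT3B and the DNA glycosylase gene TDG. Among germ-cell-like cells 3 of 9 were lower and 1 higher in the gonad (median -0.03, all genes -0.10). At E36 against E16, 3 were higher and 4 lower, beside 7.28% and 30.2% of all measured genes. At E13 against E16, 2 were higher and 2 lower, beside 17.2% and 23.3%.

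Relatives of DPPA5 and other maternal-effect genes, 6 measured of 12 in the table, were higher at E13 than at E16 in 5 cases and lower in 0 (median 2.67, all genes -0.20). Besides KHDC1L, OOEP and KHDC3L (29.2 ± 17.1 RPM against 70.8 ± 230 RPM, a mean that rests on E16 cell 8), these were the NLRP family genes NLRP7 (394 ± 216 RPM, n = 3, against 47.1 ± 92.1 RPM, n = 11) and NLRP2 (719 ± 159 against 227 ± 79.2 RPM). In the gonad 3 were higher than in the embryo and 1, KHDC3L, lower (median 1.23): NLRP7 averaged 237 ± 158 RPM against 73.3 ± 150 RPM. Among germ-cell-like cells 2 were higher and 1 lower (median 0.46). At E20 against E16 the list had 0 higher and 3 lower (median -0.67), but the germ-cell-like E20 cell against germ-cell-like E16 cells had 3 higher and 2 lower (median 1.72). At E36 against E16 it had 2 higher and 0 lower. DUXA, an early embryonic homeobox gene, was the 1 gene higher in the gonad of 2 measured genes of zygotic genome activation (0 lower), and passed 15 RPM in 3 cells, with 16.8 RPM in E13 cell 2, 135 RPM in E36 cell 1 and 37.7 RPM in E55 cell 2. These cells held 0, 6.82 and 13 RPM of DPPA2.

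Of 9 core pluripotency genes, 5 were lower at E20 than at E16 and 0 higher (median -2.84), among them POU5F1 (809 ± 570 against 3850 ± 1450 RPM) and NANOG (154 ± 248 against 1170 ± 594 RPM). Of the 8 E20 cells, 7 lie in the cluster rich in mesoderm transcripts. With the 1 germ-cell-like E20 cell against germ-cell-like E16 cells, the median was -0.25 (all genes -0.53). At E36 against E16, 5 were lower and 0 higher (median -1.12), beside 30.2% and 7.28% of all measured genes. The medians of all genes were -0.12 at E20 and -0.48 at E36. Of the core genes, SALL4, POU5F1, TDGF1, GDF3 and PRDM14 were lower at E36. PRDM14, a regulator of pluripotency and germ cells, averaged 15.6 ± 23.9 RPM against 57.0 ± 30.2 RPM. For naive pluripotency genes the gonad had 3 of 10 higher and 3 lower than the embryo, beside 7.62% and 15.1% of all measured genes. DNMT3L, a cofactor of de novo methylation, stood at 103 ± 61.5 against 22.7 ± 31.0 RPM and KLF4 at 146 ± 80.7 against 66.0 ± 57.2 RPM. Primed epiblast genes were lower in the gonad in 5 of 9 cases and higher in 0 (median -1.48, all genes -0.17). Among germ-cell-like cells 3 of 9 primed genes were lower and 0 higher (median -0.12, all genes -0.10), and 2 of 9 naive genes were higher and 0 lower.

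Genes that silence LINE-1 elements, the source of L1TD1, were higher in the gonad than in the embryo in 3 of 7 cases and lower in 0 (median 0.37). Of all measured genes 7.62% were higher and 15.1% lower. MORC2 stood at 27.2 ± 21.0 against 8.39 ± 12.1 RPM. Among germ-cell-like cells the list counts were the same and the median was 0, beside 9.01% and 14% of all genes. At E13 against E16, 3 were higher and 2 lower, beside 17.2% and 23.3% of all genes. TRIM28, a corepressor of transposons, averaged 658 ± 215 RPM at E13 against 210 ± 60.2 RPM. The 4 relatives and partners of ZFP42 showed 0 higher and 0 lower in 3 of the comparisons, and RYBP alone was lower at E13 (19.6 ± 16.6 against 96.2 ± 116 RPM). Polycomb PRC2 genes, 8 measured, gave 1 higher and 1 lower in the gonad, beside 7.62% and 15.1% of all measured genes. At E36 against E16 they gave 2 higher and 4 lower, beside 7.28% and 30.2%.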

How the data were processed

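Single-cell cDNA of 34 cells was amplified and read from the 3' ends of transcripts on the SOLiD platform, per the labels. The submitters' processing notes name cutadapt 1.3, TopHat 1.4.1 and Cufflinks 2.2.0; the role of each, the build, the annotation and the treatment of reads matching several genes are not stated in these sources. The authors deposited 1 table of log2(RPM + 1) values, settled from the values: back-transformed columns summed to 992085 to 995711 RPM, and low values were whole multiples of 1 read within 0.1 read for 99.76 to 99.97% of entries per cell. RPM and reads were recovered from it with Python 3.11.15 (numpy 2.4.6, pandas 2.3.3, scipy 1.17.1).

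Each stage counted as 1 sample, so nothing was tested. The calculation of differences, thresholds and depths was checked on simulated data. Cells were clustered (Ward linkage, 2000 most variable genes, the 7 genes left out, 2 clusters). The 7 genes and the gene lists were chosen with earlier results of these data known. Named genes were the 7, the 3 genes most correlated with each over the germ-cell-like cells, and list genes at least 2-fold different or at a mean of 15 RPM in a stage. The rule on 3 neighbouring genes on each side was added after the table was seen, and values of single cells outside these rules were chosen after they were seen. Alternatives covered the pseudocount, the filter on low values, the scaling, means against medians, cell subsets, the detection threshold, the clustering and leaving out each cell.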

Additional observations from a re-analysis of the deposited data

How the results depend on the processing

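Nothing here was tested, and with 1 sample per stage the differences between stages and between animals cannot be told apart. No paired analysis was possible because each sample is 1 cell, cell numbers follow accession order, and no test was run. Of 712 values of single genes under an alternative, 3 were marked as moved and 1 as reversed. Those moved were DPPA3 (5.69) and ZFP42 (-2.16) within code MS11, and DPPA4 (-1.05) at E20 against E16 in germ-cell-like cells. DPPA5 reversed there, to 2.57. The 712 include each cell left out in turn, and changes of the filter on low values, which cannot alter a difference. The share of marked values therefore says little about robustness, and the changes in 2-fold calls are given next. The count of genes at least 2-fold higher in the gonad, 3 in the report, was 2 with a pseudocount of 10 RPM, the log2 ratio of mean RPM, medians, germ-cell-like cells, without the E20 cells and without the 4 gonad cells with at least 300 RPM of somatic markers. The count of genes at least 2-fold lower in the gonad was 1 in the report. It was 0 with a pseudocount of 10 RPM and 0 with the log2 ratio of mean RPM. Within code MS11 it was 3, with no share of all genes given. It was 0 without E55 cell 2, E36 cell 5 and the E47 cell, a choice made after seeing the data. At E20 against E16, 3 genes were lower with a pseudocount of 10 RPM; in germ-cell-like cells 3 were lower and 2 higher, and with medians over cells 1 was higher. At E13 against E16, 0 were higher with the log2 ratio of mean RPM and 2 were lower with medians. At E36 against E16, 2 were higher with the log2 ratio, with scaling by widely detected genes and in germ-cell-like cells, and 1 was lower with medians. Leaving out each cell in turn gave 0 to 2 lower genes at E13 against E16, 4 to 5 lower at E20 against E16, and 1 to 2 higher and 0 to 1 lower at E36 against E16, and it left the counts of gonad against embryo at 3 and 1. DPPA2 was detected in 15 cells at 5 RPM and 1 at 50 RPM, and ZFP42 in 3 at 50 RPM. Of the 18 most correlated genes, 7 remained by Spearman correlation and 4 over all cells. Depth limits the statements on absence: 1 read was worth up to 2.12 RPM in the shallowest cell.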
